A study of Mus musculus with 6 samples.

Results

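Endothelial cells of the liver release growth factors that act on their neighbours, and 10 such angiocrine genes were followed here: Bmp2, Bmp6, Wnt2, Wnt9b, Rspo3, Hgf, Dll4, Dll1, Jag1 and Angpt2. They were taken by name from 23405 genes with a matched transcript, each represented by its most abundant transcript, judged by the mean of all 6 libraries. All 10 were measured, and all 10 passed the filter on low values, as did 15625 genes in total. The libraries came from male C57BL/6 mice, 3 months old, fed normal chow and given carbon tetrachloride (CCl4) into the peritoneum, a hepatotoxin used to induce liver fibrosis. The digested livers were passed over magnetic columns to select cells with the macrophage antigen F4/80, and polyadenylated RNA from 30 ng of total RNA was sequenced with a strand-specific kit. A wild-type (WT) group of 3 libraries and a knockout (KO) group of 3 were compared. Both groups received CCl4, so no untreated level can be set beside these values. The labels name neither the gene knocked out nor the cells in which it was lost, and do not say whether the libraries of a group came from different animals. The p-values therefore measure the spread between these samples.

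Bone morphogenetic proteins (BMPs) signal through paired serine/threonine kinase receptors to SMAD transcription factors, and BMP2 and BMP6 from liver sinusoidal endothelium drive hepcidin in hepatocytes and so set iron uptake. WNT2 and WNT9B from the endothelium around the central vein, amplified by the R-spondin RSPO3, maintain the pericentral programme of hepatocytes through beta-catenin. DLL4, DLL1 and JAG1 are membrane-bound ligands that activate Notch receptors on touching cells. Hepatocyte growth factor (HGF), which acts on the receptor MET, is made by stellate cells as well as endothelium. ANGPT2 modulates the endothelial receptor TEK, also called TIE2.

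The libraries held 15030947, 16604548 and 22166360 reads in WT replicates 1 to 3 and 10793260, 12822240 and 19167957 in KO replicates 1 to 3, counted over 1 transcript per gene. Mitochondrially encoded transcripts took between 6.19% and 27.5% of the reads, both extremes in WT libraries. The cells are labelled as macrophages, and all 12 macrophage and Kupffer cell markers examined were read in the libraries. Their summed level was 64933 to 152238 normalised counts in WT and 63209 to 76617 in KO. Markers of endothelium were read as well. The 9 measured genes of sinusoidal endothelium summed to 22864 to 45546 in WT and 52296 to 100247 in KO, without overlap, and 14 pan-endothelial genes to 16644 to 31131 and 30991 to 76654, with overlap. Whether the endothelial RNA came from selected cells or from carried-over material was not tested. In such bulk samples, more cells of a type and more RNA per cell cannot be told apart.

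The bases just upstream of the start of 4 of the genes are shown because these genes follow different patterns in the data described next, Wnt2 and Dll4 being higher in KO on average, Wnt9b split between the KO libraries and Hgf alike in both groups. They are RefSeq promoter windows of GRCm38.p6, limited to 250 bases before the start site and to bases with no annotated exon on the gene's strand. Capitals mark the sites that matched a searched motif. The windows lie at chr6:18030586-18030695 on the minus strand for Wnt2, chr11:103749822-103750071 on the minus strand for Wnt9b, chr5:16553245-16553494 on the plus strand for Hgf and chr2:119325534-119325783 on the plus strand for Dll4.
Wnt2: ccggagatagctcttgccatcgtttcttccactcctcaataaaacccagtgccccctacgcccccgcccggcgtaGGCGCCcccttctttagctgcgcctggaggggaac
Wnt9b: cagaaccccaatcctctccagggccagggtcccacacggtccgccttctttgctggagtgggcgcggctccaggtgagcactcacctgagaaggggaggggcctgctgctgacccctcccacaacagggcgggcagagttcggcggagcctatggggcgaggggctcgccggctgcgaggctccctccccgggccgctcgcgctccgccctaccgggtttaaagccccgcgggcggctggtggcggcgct
Hgf: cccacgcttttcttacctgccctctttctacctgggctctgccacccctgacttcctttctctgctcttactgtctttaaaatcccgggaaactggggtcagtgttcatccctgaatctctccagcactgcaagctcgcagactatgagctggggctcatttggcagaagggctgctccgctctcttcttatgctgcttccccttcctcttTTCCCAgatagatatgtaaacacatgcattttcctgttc
Dll4: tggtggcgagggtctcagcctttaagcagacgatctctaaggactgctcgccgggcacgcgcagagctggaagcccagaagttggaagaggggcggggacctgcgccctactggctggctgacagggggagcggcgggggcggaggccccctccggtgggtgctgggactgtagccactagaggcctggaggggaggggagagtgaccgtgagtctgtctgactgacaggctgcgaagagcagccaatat

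The promoter table held 7 of the 10 genes, all but Bmp2, Rspo3 and Angpt2. Over the full 250 bases of the 7 windows, 5 motifs were searched on both strands. The searched windows of Wnt2, Dll1, Jag1 and Bmp6 included annotated exon. From their far end, 110, 97, 126 and 0 bases came before the first exon base. Start sites are those of RefSeq. For Bmp6, Dll1, Wnt2, Jag1 and Hgf they lay 609, 153, 140, 124 and 55 bases from the start of the transcript kept here. For Wnt9b and Dll4 this distance was 0. The SMAD-type GC box GGCGCC occurred once each in the windows of Wnt2, at 175 bases before the start site, and of Dll1, at 169 bases before it, and is found in 9.59% of 32851 such windows. The RBPJ core TGGGAA, the DNA site of the Notch-bound factor, occurred once, on the opposite strand in the Hgf window at 39 bases before the start site, and is found in 21.6% of all windows. The GATA site AGATAA, the ETS site CGGAAG and the TATA box TATAAA, present in 9.99%, 13.6% and 12.4% of all windows, had no match in the 7. These are matches of letters only.

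Across the 10 ligands, Bmp2, Bmp6 and Wnt2 passed the test as higher in KO and none was lower. The test was limma on log2(normalised count + 1) over all 15625 genes with Benjamini-Hochberg adjustment at 0.05, by which 2.09% of all genes were called higher and 0.352% lower. All 10 log2 changes were above 0, with a median of 1.33 beside 0.05 for all genes tested. In 8 of the 10 every KO library stood above every WT library, which held for 13.7% of all genes, while 9.24% had every KO library below every WT library. The 2 ligands whose groups overlapped were Hgf and Dll4. The calls depended on single libraries. None of the 10 was called when WT replicate 1, WT replicate 3, KO replicate 2 or KO replicate 3 was left out, where 1.06%, 0.774%, 0.832% and 0.0448% of all genes were called higher. Leaving out WT replicate 2 gave calls for Bmp2 and Angpt2 (1.75% of all genes), and leaving out KO replicate 1 for Bmp2, Bmp6, Wnt2 and Dll4 (4.1% of all genes). All ligands but Hgf had estimates above 0 whichever library was left out.

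**Figure D1:**
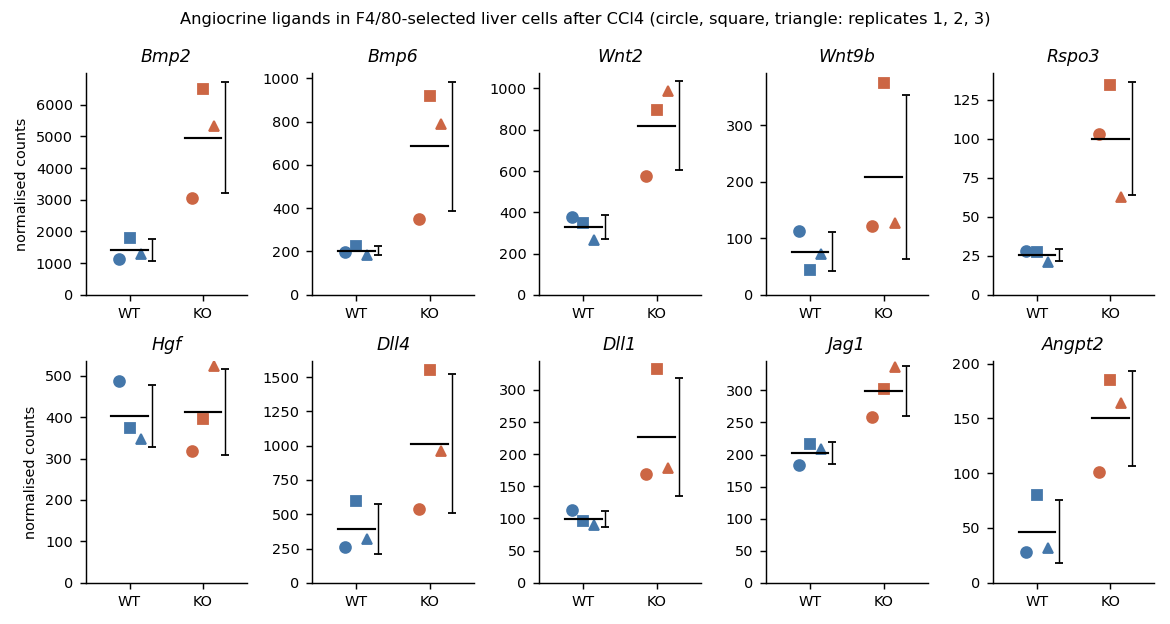
Normalised counts (vertical axes, linear, from 0) of the 10 ligands in each library, with WT in blue and KO in orange; circle, square and triangle are replicates 1, 2 and 3, horizontal lines are means and bars are 1 SD (n = 3 per group). The KO points lie above all WT points for 8 ligands, while those of Hgf and Dll4 overlap with WT.

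Of the BMP ligands, Bmp2 (chr2:133552159-133562885, 3 exons) had the highest level per length of the 10 in both groups. Its normalised counts were 1134, 1793 and 1289 in the WT libraries and 3054, 6494 and 5342 in the KO libraries. The lowest KO library was above the highest WT library, and KO replicate 1 was the lowest of its group. Bmp2 rose by 1.78 on the log2 scale (SE 0.29, 95% interval 1.12 to 2.44, limma adjusted p = 0.0223), or 3.43-fold. Bmp6 (chr13:38345107-38500302, 7 exons) was at 200, 225 and 186 in WT and at 350, 916 and 791 in KO. The WT libraries were close to each other and the KO libraries were spread, again with replicate 1 lowest. Bmp6 rose by 1.64 (SE 0.34, limma adjusted p = 0.0457), or 3.11-fold. This call is close to the threshold and was lost with TMM scaling factors in the same test (limma adjusted p = 0.0564) and with summed transcripts (0.0691). Bmp6 has 1 measured transcript, so with summed transcripts its estimate stayed at 1.64, while the SE was 0.37. The exons of Bmp6 share 224 bases, 6.23% of its length, with Txndc5 on the opposite strand, a gene at a mean of 1806 in WT and 2060 in KO. The strand setting of the counting is not given, so reads of the shared stretch cannot be assigned.

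The ratio of Bmp2 to Bmp6 levels per kilobase was 6.94 ± 1.17 in WT and 7.60 ± 1.06 in KO (SD, n = 3 each), a difference smaller than the spread within either group.

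Among the genes of the canonical Wnt pathway, Wnt2 (chr6:17988940-18030585, 5 exons) was at 376, 347 and 264 normalised counts in WT and at 577, 896 and 987 in KO. Every KO library exceeded every WT library. Wnt2 rose by 1.29 on the log2 scale (SE 0.25, 95% interval 0.73 to 1.85, limma adjusted p = 0.0380), or 2.45-fold. The call was lost when transcripts were summed for each gene (limma adjusted p = 0.0615). Wnt2 has 1 measured transcript, so its estimate stayed at 1.29 there, while the SE was 0.27. Wnt9b (chr11:103727364-103749821, 4 exons) was at 112, 44.1 and 73.0 in WT and at 122, 375 and 127 in KO. KO replicate 2 was far above the rest, and the other two KO libraries were barely above WT replicate 1. Its log2 change of 1.32 (SE 0.50, 95% interval 0.20 to 2.45) did not pass (limma adjusted p = 0.202), and without KO replicate 2 the estimate was 0.80.

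Rspo3 (chr10:29452416-29535867, 5 exons), whose protein stabilises Wnt receptors by removing the ligases that degrade them, had the lowest level per length of the 10. It was at 27.8, 27.3 and 20.8 normalised counts in WT and at 103, 135 and 62.6 in KO, that is 26 to 37 reads and 69 to 113 reads. The groups were far apart, with KO replicate 3 nearest to WT. The log2 change of 1.89 (SE 0.43, 95% interval 0.93 to 2.84) was the largest estimate of the 10 and fell short of the threshold (limma adjusted p = 0.0542). DESeq2 on the recovered reads called it (adjusted p = 8.13e-04), a test by which 6.26% of all genes were higher. An antisense gene, Gm48159, shares 404 bases with Rspo3 exons, 13.1% of their length.

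Of the Notch ligands, Dll4 (chr2:119325784-119335962, 11 exons), the ligand of sprouting and arterial endothelium, was at 261, 599 and 318 normalised counts in WT and at 539, 1550 and 958 in KO. WT replicate 2 was above KO replicate 1, so the groups overlapped. The log2 change was 1.33 (SE 0.41, 95% interval 0.42 to 2.25, limma adjusted p = 0.118). Without KO replicate 1 Dll4 was called, with a log2 change of 1.73 (limma adjusted p = 0.0361), while the lowest estimate with a library left out was 0.97, without KO replicate 2 (limma adjusted p = 0.351). Dll1 (chr17:15367354-15376872, 11 exons) was at 113, 96.6 and 89.3 in WT and at 170, 332 and 178 in KO. The groups did not overlap. KO replicate 2 stood above the others, and the log2 change was 1.11 (SE 0.32; limma adjusted p = 0.103). The lincRNA A930024N18Rik shares 624 bases with Dll1 exons on the opposite strand and was at means of 4.09 in WT and 5.02 in KO.

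Jag1 (chr2:137081456-137116644, 26 exons) had the smallest change among the 3 Notch ligands. It was at 183, 216 and 208 in WT and at 258, 303 and 336 in KO. These values were tight within groups and did not overlap, and the log2 change was 0.55 (SE 0.22, 95% interval 0.06 to 1.04, limma adjusted p = 0.224). The ratio of Dll4 to Jag1 per kilobase was 2.85 ± 1.12 in WT and 5.03 ± 2.36 in KO (SD, n = 3 each), and its library values overlapped.

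Hgf (chr5:16553495-16620152, 19 exons) had the estimate nearest to 0 of the 10. It was at 488, 375 and 346 in WT and at 317, 394 and 524 in KO, so the groups covered nearly the same range. The log2 change was 0.02 (SE 0.24, limma adjusted p = 0.985), with a 95% interval of -0.53 to 0.56. That interval leaves out changes of the size estimated for Bmp2, Bmp6 or Wnt2, but not the 0.55 of Jag1.

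Angpt2 (chr8:18690263-18741562, 9 exons) was at 27.8, 79.8 and 32.0 in WT and at 101, 185 and 164 in KO. WT replicate 2 was the highest of its group and remained below every KO library. The log2 change was 1.78 (SE 0.46, 95% interval 0.74 to 2.82), short of the threshold (limma adjusted p = 0.0798). Without WT replicate 2 it was 2.25 and passed (limma adjusted p = 0.0435), while the lowest such estimate was 1.503, without WT replicate 1 (limma adjusted p = 0.227).

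**Figure D2:**
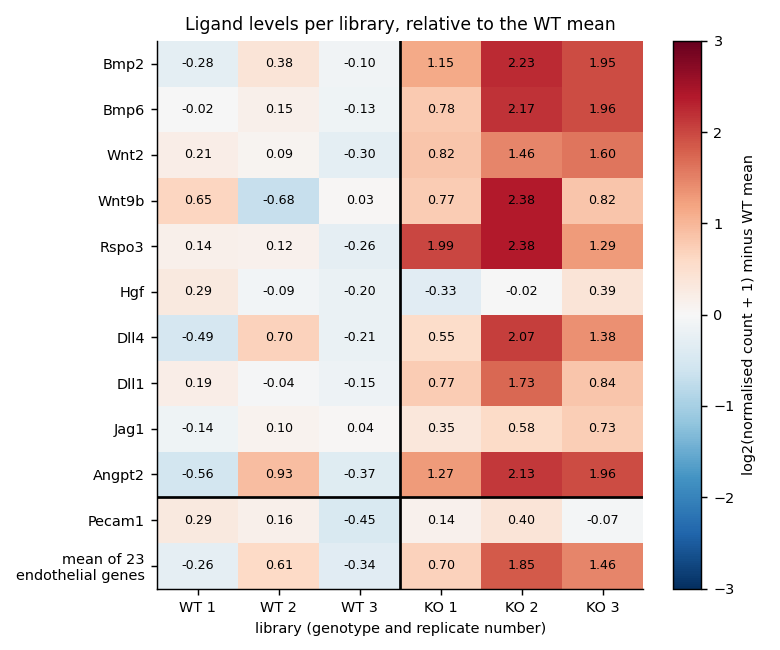
Log2(normalised count + 1) of each ligand in each library minus its WT mean (color scale and printed numbers, log2 units), with Pecam1 and the mean of 23 endothelial genes below the line. KO replicate 2 has the highest value for 7 of the ligands, and the endothelial mean follows the same order of KO libraries as Bmp2 and Bmp6.

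Of the 10 ligands, 6 shared an order of libraries, lowest in KO replicate 1 among the KO libraries and highest in replicate 2 for Bmp2, Bmp6, Wnt9b, Dll4, Dll1 and Angpt2. The mean log2 value of 23 pan-endothelial and sinusoidal genes followed it, at 11.06, 12.21 and 11.82 in KO replicates 1 to 3 and at 10.10, 10.97 and 10.02 in WT replicates 1 to 3. Erythroid transcripts were highest in KO replicate 1, where 5 genes summed to 201394 normalised counts, against 78277 and 23674 in KO replicates 2 and 3 and 1727 to 24927 in WT. The part of either measure in the ligands' values was not tested.

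Levels per length, in normalised counts per kilobase of transcript, allow the ligands to be ranked. In WT the order was Bmp2 at 395 ± 97.0 (SD, n = 3), Wnt2 at 146 ± 25.6, Hgf at 116 ± 21.6, Dll4 at 105 ± 48.2, Bmp6 at 56.6 ± 5.48, Jag1 at 36.1 ± 3.06, Dll1 at 27.9 ± 3.44, Wnt9b at 16.9 ± 7.58, Angpt2 at 13.1 ± 8.11 and Rspo3 at 8.20 ± 1.27. Neighbours whose library ranges overlapped were Wnt2 and Hgf, Hgf and Dll4, Wnt9b and Angpt2, and Angpt2 and Rspo3. In KO, Bmp2 at 1396 ± 492 and Wnt2 at 364 ± 95.6 again led, followed by Dll4 at 271 ± 136, Bmp6 at 191 ± 82.7 and Hgf at 119 ± 30.2. The other 5 lay between 32.4 ± 11.7 for Rspo3 and 63.4 ± 25.5 for Dll1, and every pair of neighbours below Bmp2 overlapped.

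**Figure D3:**
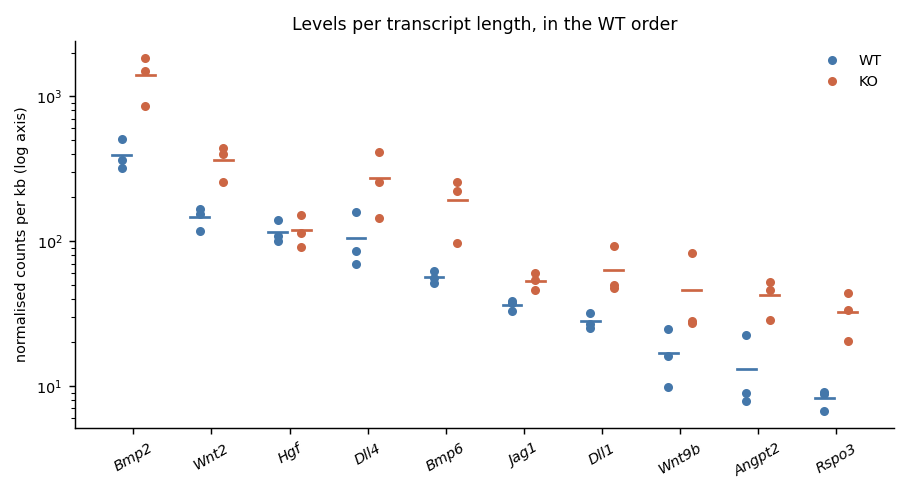
Normalised counts per kilobase of transcript (vertical axis, log scale) of the ligands in the order of their WT means; points are libraries (WT blue, KO orange) and lines are means of 3. Bmp2 is highest in both groups, at means of 395 and 1396, and Hgf is the ligand whose means are nearest to each other, at 116 and 119.

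The second question was how the ligands changed against endothelial content, first with Pecam1, the adhesion molecule CD31, as the reference. Pecam1 was at 6410, 5887 and 3847 normalised counts in WT and at 5794, 6925 and 5016 in KO. Its groups overlapped, with a log2 change of 0.16 (SE 0.24, 95% interval -0.39 to 0.70, limma adjusted p = 0.797). Other endothelial genes had higher estimates, 0.89 for Cdh5, 1.28 for Kdr and 0.91 for Stab2, none of them called (limma adjusted p = 0.228, 0.115 and 0.179). Pecam1 is also expressed by leukocytes. The leukocyte gene Ptprc (CD45) had 24612 ± 6145 normalised counts in WT against 12406 ± 3275 in KO (SD, n = 3 each, log2 change -0.99) and was not called (limma adjusted p = 0.116). Any part of leukocyte RNA in the Pecam1 values was not tested.

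Relative to Pecam1, 9 of the 10 ligands had estimates above 0, with a median log2 difference of 1.17. The KO libraries lay above all WT libraries for 7, namely Bmp2, Bmp6, Wnt2, Wnt9b, Rspo3, Dll1 and Angpt2, which held for 7.03% of all genes. The unadjusted interval of a linear model on 4 residual degrees of freedom, a fit added after seeing the data, was above 0 for 6 of these and for 4.2% of all genes. After adjustment over all genes that model called 0 ligands and 0 genes (Benjamini-Hochberg adjusted p from 0.521 for Rspo3 to 0.941 for Hgf). For Bmp2 the log2 ratio to Pecam1 was -2.50, -1.71 and -1.58 in WT and -0.92, -0.09 and 0.09 in KO, a difference of 1.62 (95% interval 0.44 to 2.80). In KO replicate 3 Bmp2 thus exceeded Pecam1. The ratio for Rspo3 had the narrowest interval, at -7.80, -7.70 and -7.47 in WT and -5.80, -5.67 and -6.30 in KO, a difference of 1.73 (95% interval 1.13 to 2.33). The differences of Bmp6, Wnt2, Dll1 and Angpt2 were 1.48 (0.20 to 2.76), 1.14 (0.31 to 1.96), 0.96 (0.25 to 1.67) and 1.63 (0.14 to 3.12).

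The remaining intervals held 0. They ran from -0.48 to 2.81 for Wnt9b, -0.37 to 2.73 for Dll4, -0.53 to 1.32 for Jag1 and -1.07 to 0.79 for Hgf. An exact permutation test of 3 against 3 libraries cannot go below p = 0.1, two-sided, which was reached by the 7 ligands without overlap. The limma fit of all genes relative to Pecam1 called Bmp2, Bmp6 and Dll4 higher (adjusted p = 5.22e-04, 0.00874 and 0.0477), where 2.82% of all genes were called higher and 0.838% lower. All ratios in that fit carry the error of Pecam1, so its p-values are too small.

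**Figure D4:**
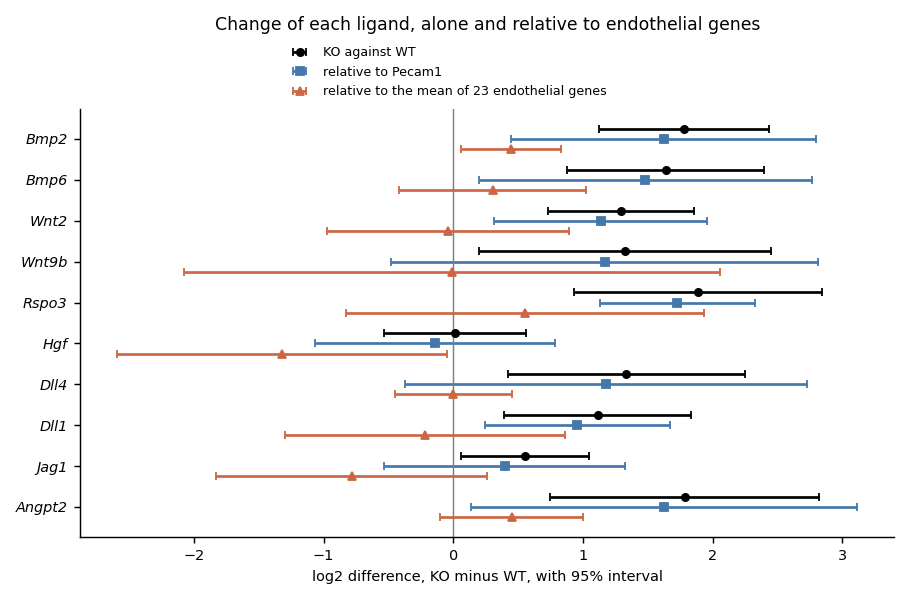
Log2 difference of KO minus WT (horizontal axis) with its 95% interval for each ligand, alone (black, limma), relative to Pecam1 (blue) and relative to the mean of 23 endothelial genes (orange), the last 2 from a linear model on 4 residual degrees of freedom. The black and blue estimates of the 9 ligands other than Hgf are above 0, and the orange ones spread around 0, where the interval of Bmp2 lies above it and that of Hgf below it.

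The choice of reference changed this result. Against Cdh5, Kdr or Stab2, 8, 7 and 8 ligands had estimates above 0, with medians of 0.44, 0.05 and 0.42. None was called by limma, where 0.147%, 0.0896% and 0.41% of all genes were called higher. In these fits, and in that on the endothelial mean below, all ratios carry the error of the reference. There limma drew the variance of each gene close to a trend common to all genes. For Bmp2 against Cdh5 the limma SE was 0.57, beside an unadjusted interval of 0.32 to 1.46. The missing calls therefore do not show that no ligand differed. By the unadjusted intervals, Bmp2 and Angpt2 were above 0 against Cdh5 (0.32 to 1.46 and 0.20 to 1.59) and against Stab2 (0.36 to 1.38 and 0.31 to 1.44), as were 0.755% and 0.768% of all genes. Against Kdr no ligand had an interval above 0, and that of Hgf was below 0 (-2.46 to -0.07), as for 21.2% of all genes. Against the mean of the 23 endothelial genes, which was itself 1.33 log2 units higher in KO, 5 estimates were above 0, the median was -0.005 and none was called, where 0.365% of all genes were called higher and 38.4% lower. Bmp2 was then 0.44 higher (95% interval 0.06 to 0.83), at 0.05, -0.16 and 0.31 in WT and 0.52, 0.45 and 0.56 in KO, and its groups did not overlap, which held for 0.358% of all genes. For Dll4 the mean log2 ratio to the endothelial mean was -1.84 in WT and -1.84 in KO. Its difference of KO minus WT was 0.00 (95% interval -0.45 to 0.45). For Hgf this ratio was -1.72 in WT and -3.04 in KO, a difference of -1.32 (95% interval -2.59 to -0.05). Its KO libraries lay below all WT libraries, as did those of 41.5% of all genes. Of the 10, the interval lay above 0 for Bmp2 alone, as for 0.198% of all genes, and below 0 for Hgf alone, as for 32.3%.

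The receptors, inhibitors and targets of the same pathways were counted in the fit of all genes, by the background shares given above. None of 11 tested BMP receptors and co-receptors was called, and 8 had estimates above 0 (median 0.38). Eng, the endothelial co-receptor endoglin, was at 3568, 8651 and 4430 in WT and at 10482, 23073 and 15528 in KO (log2 change 1.59, SE 0.38, limma adjusted p = 0.0628). For Rgma, another co-receptor, the log2 change was 1.65 (SE 0.55, limma adjusted p = 0.148). Of 13 SMAD transducers and BMP targets none was called and 9 were above 0 (median 0.48). Atoh8, a BMP-responsive transcription factor, was at 64.9, 31.5 and 32.0 in WT and at 152, 123 and 125 in KO (log2 change 1.69, SE 0.38, limma adjusted p = 0.0550). For the inhibitory SMAD gene Smad6 it was 1.77 (SE 0.54, limma adjusted p = 0.117). Hamp, which encodes hepcidin and was looked up after the values were seen, was at 197, 101 and 90.4 in WT and at 73.0, 231 and 321 in KO, with overlap. None of 10 BMP antagonists was called, with 8 above 0 (median 0.44), Nbl1 at 0.89 and Bmper at 1.24 having the smallest p. None of 7 other BMP and GDF ligands was called, with 6 above 0 (median 0.82). Bmp1, a protease that matures collagen, was at 0.86 and Bmp4 at 0.84.

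Of the other Wnt and R-spondin ligands 8 were tested, 5 were above 0 (median 0.39) and none was called. Wnt4 was at 133, 131 and 143 in WT and at 209, 211 and 388 in KO (log2 change 0.92, limma adjusted p = 0.130), and Rspo1 had a log2 change of 0.71. Of 15 Wnt receptors and secretion genes, 12 were above 0 (median 0.35) and none was called, with Ryk at 0.96 (limma adjusted p = 0.0793) and Fzd7 at -0.50. None of 9 Wnt antagonists was called (7 above 0, median 0.60), with Sfrp2 at 0.82 and Notum at 1.51. Among 13 Wnt targets, 9 were above 0 (median 0.30) and Cyp2e1, the pericentral cytochrome that activates CCl4, was the one called. It was at 381, 181 and 400 in WT and at 1874, 967 and 2027 in KO, a log2 rise of 2.35 (SE 0.36, limma adjusted p = 0.0206). Cyp2e1 is a hepatocyte gene and itself among 12 hepatocyte markers. Of these 7 rose in KO, Cyp2e1 included, where 2.09% of all genes were called higher, and the median log2 change was 2.28. Their summed level was 24889 to 76358 in WT and 99961 to 174002 in KO. Most of it was Alb, at 18082 to 60777 in WT and 64234 to 115981 in KO, which was not called (limma adjusted p = 0.283). The part of the other hepatocyte markers in the Cyp2e1 result was not tested. Axin2 and Glul, targets named here after their values were seen, had log2 changes of -0.13 and 0.25 (limma adjusted p = 0.903 and 0.544).

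The single other Notch ligand tested, Jag2, was at 2.06 to 45.2 in WT and 14.3 to 46.2 in KO. Of 20 Notch receptors and modifiers, 8 were above 0 (median -0.04). Psen2, a catalytic subunit of the gamma-secretase that releases the Notch intracellular domain, was called, at 784, 903 and 843 in WT and 1369, 1520 and 1367 in KO (log2 rise 0.75, SE 0.16, limma adjusted p = 0.0471). All 5 tested Notch targets were above 0 (median 0.38) and none was called, with Nrarp at 0.92 and Sox9, also a cholangiocyte marker, at 1.26. Of 12 genes of HGF activation and response, 10 were above 0 (median 0.70). Hpn, the hepatocyte surface protease hepsin that activates HGF, rose from 243, 263 and 205 to 439, 480 and 550 (log2 change 1.05, SE 0.21, limma adjusted p = 0.0398). Met, chosen after its value was seen, was at -0.26 (limma adjusted p = 0.792). All 9 tested angiopoietin pathway genes were above 0 (median 1.22) and Tie1 was called, at 968, 2137 and 1172 in WT and 2771, 5121 and 4111 in KO (log2 rise 1.53, SE 0.32, limma adjusted p = 0.0464). Tek, the ANGPT2 receptor, also chosen after its value was seen, was at 1.28 (limma adjusted p = 0.0975). Tie1, Tek, Kdr and others of this list are also among the 23 endothelial genes, so it is not separate from the endothelial markers.

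**Figure D5:**
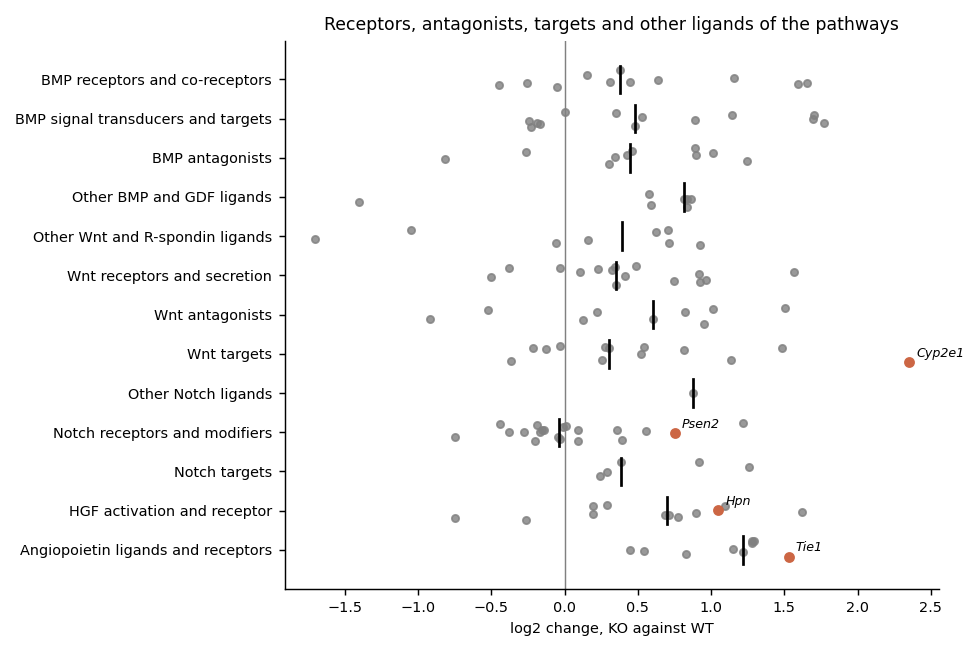
Log2 change of KO against WT (horizontal axis) of each tested gene in 13 pathway lists, with called genes in orange and named and list medians as vertical lines. The 4 called genes are Cyp2e1, Psen2, Hpn and Tie1, all higher in KO, and the median of the Notch receptors and modifiers lies at -0.04.

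Markers of endothelium had medians above the 0.05 of all genes in the fit of KO against WT. In that fit 2.09% of all genes were called higher and 0.352% lower. Of 9 sinusoidal endothelial markers, 4 rose (Clec4g, Dnase1l3, Gpr182 and Gata4, median of the list 1.42), as did 3 of 14 pan-endothelial genes (Tie1, Emcn and Esam, median 1.36) and 2 of 8 markers of central vein and portal endothelium (Efnb2 and Ltbp4, median 0.59). These endothelial calls lay close to the threshold (limma adjusted p = 0.0419 to 0.0482). Of 14 stellate cell and fibroblast markers, a possible source of Hgf, Col1a1 rose (median 0.69), and the summed level was 19870 to 26777 in WT and 32979 to 58589 in KO, without overlap. Lrat, a marker of quiescent stellate cells chosen after its value was seen, was at -0.46 and not called. Macrophage and Kupffer cell markers had a median of -0.05 with 0 of 12 called, and the F4/80 gene Adgre1 was at -0.23 on the log2 scale (limma adjusted p = 0.706). Of the 12, 1 stood higher in KO and 2 lower without overlap of the groups, beside 13.7% and 9.24% of all genes. Marco, a scavenger receptor, was at 8525 to 39406 in WT and 5467 to 6660 in KO (log2 change -1.63, limma adjusted p = 0.103). Csf1r, the CSF1 receptor, was at 23867 to 38520 and 15676 to 18223 (-0.92, limma adjusted p = 0.127). Clec4f, named after its value was seen, was at 3142 to 3274 and 4727 to 9342 (1.12, limma adjusted p = 0.0539). In the fit relative to Pecam1 Marco was called lower (limma adjusted p = 2.99e-04). Markers of monocytes (median -0.48, Cx3cr1 lower), platelets (-0.32), lymphocytes (0.14), mesothelium (0.63), cholangiocytes (1.15, Spp1 higher) and erythroid cells (3.05) were examined as well, and no marker was at 0 in all libraries. The part of any of these lists in the ligand values was not tested.

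Over the 6 libraries, the genes most alike to each ligand were taken by Pearson's r of log2(normalised count + 1) among 13586 named genes. These points share libraries, depth and the group difference, and are given as a description. Bmp6 was closest to Efnb2 (r = 0.999), the arterial ligand ephrin-B2, and to Clec4f (r = 0.995), a Kupffer cell lectin. Bmp2 was closest to Tex264 (r = 0.999), Wnt2 to Car8 (r = 0.996), and Dll4 to Pkdcc and Nos3, the endothelial nitric oxide synthase (r = 0.997 each). Angpt2 was closest to Cdkn1c (r = 0.998), Jag1 to Mcc (r = 0.9997), Dll1 to Dennd2c (r = 0.996), Rspo3 to Pla2g12a (r = 0.992), Wnt9b to Commd7 (r = 0.988) and Hgf to Alcam (r = 0.984). The number of genes with r over 0.95 was 222 to 251 for Bmp2, Bmp6, Wnt2, Dll4 and Angpt2, 129 for Jag1, and 13 to 55 for Dll1, Rspo3, Hgf and Wnt9b.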

How the data were processed

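The authors deposited 1 table per library, of normalised counts for 79382 Ensembl transcripts per the file headers, a signal equal to whole reads divided by 1 factor per library. All values (100%) came out as whole multiples within a tolerance of 0.001, so whole reads were recovered. Tools named in the submitters' processing notes, with no role or order, were DESeq 1.8.3, HTSeq 0.5.3, SAMtools, STAR 2.4.0k and bcl2fastq 2.17, with GRCm38.p4 as the build. Annotation and strand setting were not given in the sources used here. GENCODE M21 of GRCm38 matched 78344 transcripts. Unmatched transcripts held 1.02% to 1.31% of the reads and were not used here.

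The transcript of highest mean was kept per gene, and genes passing edgeR's filterByExpr were tested with limma 3.58.1 (trended prior, R 4.3.3) on log2(value + 1), two-sided with Benjamini-Hochberg adjustment, which understates changes of low genes. Scripts were tested on simulated data. Alternatives were other pseudocounts, filters, scaling, references and transcript sums, a replicate block, each library left out, limma-voom, edgeR 4.0.16, which called 280 genes on the recovered reads, and DESeq2 1.42.0. A linear model without moderated variance was added after seeing the data. The members and lists were chosen with earlier results of these data known. All ligands and Pecam1 are named, and from each pathway list the called genes or else the 2 of smallest p. Also named are, for each ligand, the genes of highest correlation, markers of highest mean or called, Adgre1, Ptprc and Csf1r, and genes marked in the text as chosen later.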

Additional observations from a re-analysis of the deposited data

How the results depend on the processing

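The 9 ligands other than Hgf kept log2 changes above 0 under all 17 alternatives for KO against WT. The range was 1.55 to 2.09 for Bmp2, 1.37 to 2.06 for Bmp6 and 1.14 to 1.53 for Wnt2. Hgf, near 0, fell below it with TMM factors in limma (-0.0257), the sum of transcripts (-0.062), edgeR (-0.0137) and DESeq2 (-0.0007), and ranged from -0.17 to 0.19 with 1 library left out (below 0 when it was WT replicate 2 or 3 or KO replicate 3). With 1 library left out, 0 to 4 ligands and 8 to 810 genes were called, against 3 and 381, and WT without replicate 1, WT without replicate 3 and KO without replicate 2 gave 170, 173 and 136 genes. DESeq2 called 7 ligands and 1407 genes, the sum of transcripts 1 (Bmp2, with Bmp6 and Wnt2 lost) and 232, and edgeR 3 ligands. Without moderated variance limma's linear model called 0 ligands and 0 genes, where 2258 genes had an unadjusted p under 0.05. Same-numbered libraries had correlations of their deviations of -0.01, 0.09 and -0.14, so the replicate numbers were not taken to pair them. The replicate block called 532 genes and 4 ligands, and 347 genes and 3 ligands relative to Pecam1.

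Relative to Pecam1, 3 ligands and 571 genes were called. With 1 library left out these were 0 to 4 and 202 to 625, and without moderated variance 0 and 0 (1298 genes at an unadjusted p under 0.05). Cdh5, Kdr, Stab2 and the endothelial mean as reference gave 0 ligands each and 90, 553, 521 and 6057 genes, with the limit given above. Jag1 then turned below 0 with all 4 (-0.34, -0.73, -0.35 and -0.78), Dll1 with Kdr (-0.16) and the endothelial mean (-0.22), and Wnt2 (-0.0408) and Wnt9b (-0.0105) with the endothelial mean. Hgf relative to Pecam1 ranged from -0.44 to 0.0236 with 1 library left out, the highest without KO replicate 1. The causes were not tested. Rspo3, Wnt9b and Angpt2 rested on the fewest reads, down to 26 in a library for Rspo3.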
